A study of Mus musculus with 7 samples.

Results

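The EGF family ligands and the ERBB receptors were followed here in the mouse uterus through 10 genes, taken by symbol from the deposited expression table: the ligand genes Areg, Ereg, Hbegf, Egf, Tgfa and Btc and the receptor genes Egfr, Erbb2, Erbb3 and Erbb4. All 10 are among the 24964 genes listed. RNA was sequenced from the whole uterus of mice aged 12 weeks, all recorded in diestrus, when the ovarian cycle is between ovulations. The 3 control libraries (replicates 1, 2 and 4) have the genotype Pgrcre/+, and the 4 libraries labelled Foxl2-LSL (replicates 1 to 4) have the genotype Pgrcre/+Foxl2LsL/+. One Pgr-Cre allele is thus shared by all 7 libraries, and no mice without Cre were part of the comparison. Cre made from the progesterone receptor gene acts in the several uterine cell types that express this receptor, so the libraries cannot assign a change to one of them. The labels give 1 library per replicate number and do not say whether each came from a separate animal, so p-values measure the spread between these libraries.

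Ligands of this family are made as membrane-anchored precursors and are released by proteases such as ADAM17. The ligands followed here bind EGFR or ERBB4, which then pair with each other or with ERBB2 and ERBB3. ERBB2 has no known ligand and ERBB3 has a weak kinase, so both work through a partner. Signals pass to the RAS-MAPK, PI3K-AKT and STAT branches and are held back by inhibitors such as LRIG1 and the Sprouty proteins. In the mouse uterus amphiregulin is known as a progesterone-induced epithelial ligand, and heparin-binding EGF (Hbegf) is known for its expression around the implanting embryo.

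Levels are given in FPKM, fragments scaled to gene length in kilobases and to the fragments of the library, so genes can be compared with each other. Recovered denominators were 47800000 to 67300000 fragments per library (rounded), and 3 fragments were taken as the floor of detection. Foxl2 itself averaged 14.4 ± 4.32 FPKM (SD, n = 3) in controls and 14.7 ± 1.86 FPKM (SD, n = 4) in the libraries labelled Foxl2-LSL. The gene named in the label thus showed no rise in these values. The labels do not say whether a transcript of the allele would be counted under this gene, so its expression cannot be judged here. Epithelial, stromal and muscle markers were present in every library (Epcam from 61.2, Pdgfra from 9.39 and Myh11 from 81.0 FPKM upward). The gland genes Foxa2 and Cxcl15 were found in each too, but both fell. Foxa2 averaged 5.71 ± 1.03 FPKM in controls and 1.36 ± 0.209 FPKM in the other group (limma, adjusted p 0.000322). Cxcl15 averaged 27.8 ± 5.19 and 4.26 ± 0.813 FPKM (limma, adjusted p 0.000147, both with SD, n = 3 and n = 4). These were the 2 tested of 5 gland genes listed, and the other 3 were too low for the filter. Of those, Prss29 (3 fragments in controls, 25 in the other group) and Prss28 (3 and 10) went the other way. Spink1 had 107 fragments in control 4 and 0 in every other library. Control 4 had the lowest Epcam (61.2 FPKM, against 106 to 171 elsewhere) and the highest Pdgfra (38.3 FPKM, against 9.39 to 16.8). Krt8, Krt18, Krt19, Krt7 and Cldn7 were also lowest there, and Col1a1, Vim, Hoxa10 and Hoxa11 highest. Neither list moved as a whole: Cldn3 was highest in control 4 (194 FPKM, against 80.2 to 126) and Dcn lowest (367 FPKM, against 400 to 1030). Cdh1 and Lum were at neither end. Control 2 held 291 FPKM of the oviduct gene Ovgp1, against 1.65 to 19.7 FPKM in the other 6 libraries, while the granulosa gene Fshr was at 0.11 FPKM or less in each. Of the marker lists, endothelium had 4 of 5 tested genes lower and 0 higher, leukocytes 2 of 5 higher and 0 lower, smooth muscle 2 of 6 higher (Myh11 and Tagln) and 0 lower, and stroma 1 of 7 higher and 3 lower. Mesothelium had 1 of 4 lower and the oviduct genes 1 of 2 lower (Foxj1, with Ovgp1 not called), each with 0 higher. Of the adipocyte genes 0 of 3 and of the ovarian genes 0 of 1 were called (limma). The part of these differences in the results below was not tested beyond leaving out each library in turn and the ratios to markers given with the receptors. In bulk tissue, fewer cells of a type and less RNA per cell cannot be told apart.

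Of the 10 genes, 3 rose (Btc, Erbb2 and Erbb4), 1 fell (Egfr) and 6 did not pass an adjusted p of 0.05 (limma over 13338 tested genes, Benjamini-Hochberg). Across all tested genes 40.5% passed, so 4 of 10 is a share near the background. The groups did not overlap in 5 of the 10 genes, where 47.6% of the tested genes did not overlap. The median log2 fold change of the 10 was 0.05, against -0.051 for all tested genes. Among the 10, 6 had a mean of at least 1 FPKM. Areg, Ereg, Egf and Erbb4 lay below it and were kept in the fit whatever their level. Fold changes on the log2 scale refer to FPKM + 1, which compresses the changes of such low genes.

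Promoter sequence is shown for the 4 genes that passed the test and for Areg, whose fragments were nearly all in controls. Each run is the 250 bases before the start of the gene in RefSeq (GRCm38.p6), 5′ to 3′ on the strand of the gene. Capitals mark matches to the motifs searched.
Areg, chr5:91139349-91139598, plus strand: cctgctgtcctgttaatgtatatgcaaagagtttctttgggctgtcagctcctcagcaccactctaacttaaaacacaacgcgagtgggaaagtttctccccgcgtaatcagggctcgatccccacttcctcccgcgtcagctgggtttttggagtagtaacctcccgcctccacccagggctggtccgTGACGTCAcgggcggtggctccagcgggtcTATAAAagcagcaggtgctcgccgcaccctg
Btc, chr5:91402995-91403244, minus strand: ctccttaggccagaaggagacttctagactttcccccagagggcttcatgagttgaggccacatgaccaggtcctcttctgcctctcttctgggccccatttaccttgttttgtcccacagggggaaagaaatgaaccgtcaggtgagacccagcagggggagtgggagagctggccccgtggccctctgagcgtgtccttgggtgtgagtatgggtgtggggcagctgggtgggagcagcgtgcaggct
Egfr, chr11:16751953-16752202, plus strand: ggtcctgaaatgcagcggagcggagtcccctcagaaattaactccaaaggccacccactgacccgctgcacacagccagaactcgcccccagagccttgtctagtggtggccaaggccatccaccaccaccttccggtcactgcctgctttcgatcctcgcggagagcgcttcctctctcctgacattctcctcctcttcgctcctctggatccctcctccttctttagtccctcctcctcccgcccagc
Erbb2, chr11:98412234-98412483, plus strand: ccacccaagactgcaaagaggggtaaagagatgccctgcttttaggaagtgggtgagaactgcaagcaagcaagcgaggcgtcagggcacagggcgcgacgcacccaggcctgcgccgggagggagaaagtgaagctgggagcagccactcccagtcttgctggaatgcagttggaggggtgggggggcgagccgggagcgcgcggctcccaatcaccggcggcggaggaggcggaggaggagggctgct
Erbb4, chr1:69108060-69108309, minus strand: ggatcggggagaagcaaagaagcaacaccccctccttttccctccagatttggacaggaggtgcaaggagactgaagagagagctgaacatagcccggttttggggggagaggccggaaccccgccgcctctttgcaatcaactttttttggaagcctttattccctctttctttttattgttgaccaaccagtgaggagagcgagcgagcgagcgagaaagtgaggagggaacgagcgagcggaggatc
The table of promoters held 7 of the 10 genes, without Ereg, Hbegf and Erbb3. The motifs were the cAMP response element TGACGTCA, the forkhead core TGTTTAC, the full palindromes of the estrogen and the progesterone response element, the AP-1 site TGANTCA and the TATA box TATAAA, each read on both strands. In this window Areg held TGACGTCA, 61 to 54 bases before the start, and TATAAA, 31 to 26 bases before it. Of all 32851 windows of the same length, 1.55% held TGACGTCA and 12.4% held TATAAA. The 4 other windows shown held no match to any of the 6 motifs. The forkhead core was in 3.17% of all windows and, among the genes followed here, only in a second start site of Egf. A match is a run of letters and not evidence of binding.

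The receptor genes differed by level before they differed by genotype. Erbb2, the ligandless partner receptor, was above Erbb3 in all 7 libraries, at 1.31 to 1.47 times its FPKM in controls and 1.56 to 2.68 times in the libraries labelled Foxl2-LSL. Over the controls the ranges of these neighbours overlapped (13.1 to 21.5 FPKM for Erbb2 and 9.58 to 16.4 FPKM for Erbb3). Egfr came after these in 6 libraries, but in control 4 it reached 10.2 FPKM and lay above Erbb3. Erbb4 was the lowest receptor gene in every library.

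Erbb2 rose (GRCm38, chromosome 11, 98412470 to 98437716, plus strand). Controls 1, 2 and 4 had 21.5, 16.3 and 13.1 FPKM, against 28.8, 27.6, 32.4 and 29.7 FPKM for Foxl2-LSL 1 to 4. Every library labelled Foxl2-LSL lay above every control. On average Erbb2 stood at 17.0 ± 4.21 FPKM in controls (SD, n = 3) against 29.6 ± 2.04 FPKM (SD, n = 4), a ratio of 1.75. The log2 fold change was 0.79 (SE 0.15, 95% interval 0.45 to 1.14; limma, adjusted p 0.005), and the exact permutation test (two-sided, 35 splits) gave p = 0.057, the lowest value possible with 3 against 4 libraries, so this test cannot reach 0.05 here. The call held in each of the 7 fits that left out a library (adjusted p 0.00156 to 0.0221, limma). Its exons overlap those of Mien1 in the annotation used here, and how the authors' counting treated the overlap is not given in the sources used here.

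ERBB2 and ERBB3 are known mainly from epithelium, so the epithelial markers are given beside them. Of 8 markers of simple epithelium, 2 were called higher (Krt18 and Krt7) and 0 lower, and their summed level was 804 to 1430 FPKM in controls and 1110 to 1540 FPKM in the libraries labelled Foxl2-LSL. Epcam and Cdh1 did not pass the test. The ratio of Erbb2 to each of the 8 markers, an addition made after the values were seen, gave no single answer. It was higher without overlap in the libraries labelled Foxl2-LSL relative to 3 of them (Cdh1, Krt8 and Cldn3) and overlapped for the other 5. Relative to Cdh1, Erbb2 was at 0.178 to 0.187 in controls and 0.300 to 0.407 in the other group (exact two-sided permutation p 0.057). Relative to Krt18, which rose by 0.80 on the log2 scale against 0.79 for Erbb2, the latter was at 0.133 to 0.141 and 0.131 to 0.154 (exact permutation p 0.743).

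Erbb4, a receptor for neuregulins and betacellulin, went from the edge of detection to a low level (chromosome 1, 68032186 to 69108059, minus strand). Controls 1, 2 and 4 held 0.020, 0.028 and 0.001 FPKM, which stand for 15, 23 and 1 fragments. Foxl2-LSL libraries 1 to 4 held 0.354, 0.445, 0.459 and 0.531 FPKM, from 279, 256, 334 and 336 fragments. Every Foxl2-LSL library lay above every control, and control 4 was the lowest. Summed over libraries, 39 against 1205 fragments gave a ratio of 26.8 after correction for depth (95% exact conditional binomial interval 19.5 to 37.9, for counting error only). The log2 fold change was 0.51 (SE 0.11, 95% interval 0.24 to 0.77; limma, adjusted p 0.0105), and the same comparison with a pseudocount of 0.1 gave 2.23. In limma-voom on the recovered fragments, which called 39.7% of all tested genes, it was 5.47 with an adjusted p of 0.00155. The call ended when the filter was raised to a mean of 5 FPKM (adjusted p 0.312). Even so, Erbb4 made up only 0.813% to 1.05% of the summed receptor FPKM in the libraries labelled Foxl2-LSL.

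Egfr, the EGF receptor gene, fell (chromosome 11, 16752203 to 16918158, plus strand). Controls 1, 2 and 4 had 4.99, 5.45 and 10.2 FPKM of it, and Foxl2-LSL 1 to 4 had 3.59, 4.06, 3.96 and 3.91 FPKM. The groups did not overlap, and control 4 was the high library. The control mean was 6.88 ± 2.90 FPKM (SD, n = 3) against 3.88 ± 0.204 FPKM (SD, n = 4), and the log2 fold change was -0.63 (SE 0.20, 95% interval -1.11 to -0.16; limma, adjusted p 0.0413; exact two-sided permutation p 0.057). This is the least stable of the 4 calls: it passed in 8 of 18 alternatives. It was lost without control 2 (adjusted p 0.0522) and without Foxl2-LSL 1 (0.0867), 2 (0.0724), 3 (0.0842) or 4 (0.082), all with limma. Without control 4 the fall was smaller, at -0.35, and the call held (adjusted p 0.017). Stromal markers moved in both directions beside it. Vim (-0.56), Hoxa10 (-1.45) and Hoxa11 (-1.90) fell and Dcn rose (1.25), with a list median of -0.56 over 7 genes, and control 4 had the most Pdgfra, Hoxa10 and Hoxa11. The list summed to 969 to 1530 FPKM in controls and 1440 to 1630 FPKM in the other group, where Dcn alone averaged 411 and 978 FPKM. The ratio of Egfr to each of the 7, added after the values were seen, was lower without overlap for 2 (Dcn and Lum), higher without overlap for 2 (Hoxa10 and Hoxa11) and overlapped for 3. Relative to Pdgfra it was at 0.267 to 0.531 in controls and 0.242 to 0.285 in the libraries labelled Foxl2-LSL (exact permutation p 0.171).

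Erbb3 (chromosome 10, 128567523 to 128589652, minus strand), the receptor that couples strongly to PI3K, was not called. Controls had 16.4, 11.1 and 9.58 FPKM, and Foxl2-LSL 1 to 4 had 10.8, 17.7, 18.7 and 16.3 FPKM. The groups overlapped, with Foxl2-LSL 1 among the controls. The log2 fold change was 0.35 (95% interval -0.17 to 0.86; limma, adjusted p 0.248).

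**Figure D1:**
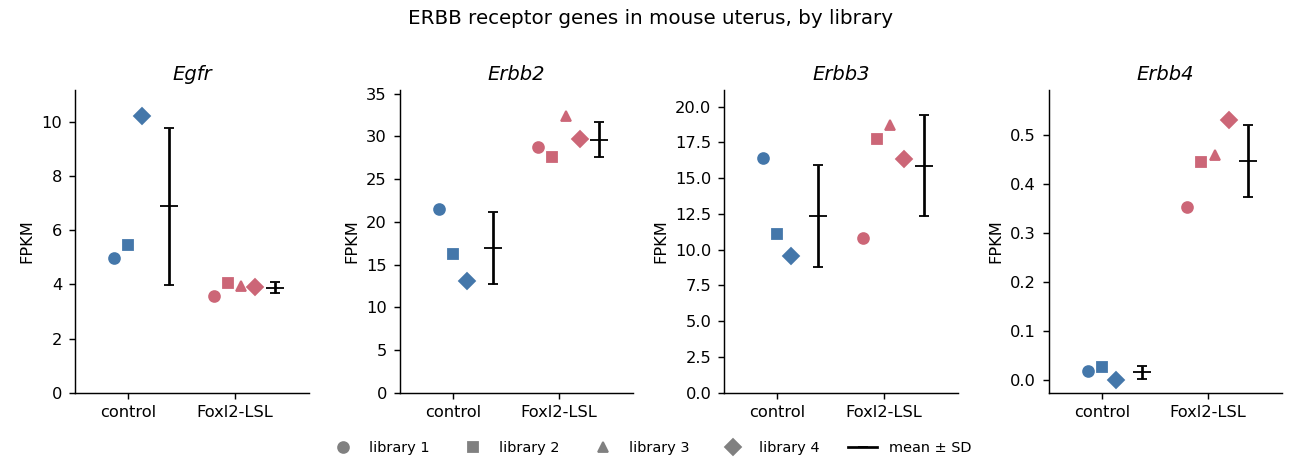
FPKM of the 4 receptor genes in each library (marker shape gives the replicate number), with the mean and SD of each group in black; each vertical axis has its own range. Erbb2 and Erbb4 lie higher in every library labelled Foxl2-LSL than in every control, Egfr lies lower with control 4 at 10.2 FPKM, and Erbb3 overlaps.

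The make-up of the receptor pool shifted between the groups. The 4 receptor genes summed to 42.8, 32.9 and 32.9 FPKM in controls, against 43.6, 49.8, 55.6 and 50.4 FPKM for Foxl2-LSL 1 to 4. Erbb2 took 46.5% ± 5.79 (SD, n = 3) of this sum in controls and 59.7% ± 4.62 (SD, n = 4) in the other group, while Egfr took 19.8% ± 10.1 and 7.82% ± 0.508. Erbb3 kept a similar part, 33.7% ± 4.55 and 31.6% ± 4.77, and its shares overlapped. The ratio of Erbb2 to Egfr was 4.30, 2.99 and 1.28 in controls 1, 2 and 4 and 8.03, 6.78, 8.17 and 7.59 in Foxl2-LSL libraries 1 to 4. These shares and ratios restate the single-gene values and were chosen after those were seen.

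Btc, which encodes betacellulin, a ligand of both EGFR and ERBB4, was the 1 ligand of 6 that passed the test, and it rose (chromosome 5, 91357261 to 91402994, minus strand). Controls 1, 2 and 4 held 1.65, 1.31 and 0.631 FPKM, while Foxl2-LSL 1 to 4 held 2.97, 2.61, 3.15 and 3.21 FPKM. All 4 lay above the highest control, and control 4 was the lowest of all. Mean levels were thus 1.20 ± 0.520 FPKM in controls (SD, n = 3) against 2.98 ± 0.268 FPKM (SD, n = 4), a ratio of 2.49. The log2 fold change was 0.88 (SE 0.17, 95% interval 0.50 to 1.27; limma, adjusted p 0.00522; exact two-sided permutation p 0.057), and the gene passed in 18 of 18 alternatives. Relative to Epcam, Btc was at 0.00967 to 0.0107 in controls and 0.0180 to 0.0247 in the libraries labelled Foxl2-LSL, without overlap, as for each of the 8 epithelial markers (ratios added after the values were seen). The gap was narrowest for Krt7, at 0.0168 to 0.0204 in controls and 0.0206 to 0.0300 in the other group. Its part of the summed ligand FPKM was 8.43% ± 1.96 (SD, n = 3) and 21.9% ± 5.08 (SD, n = 4).

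Areg, which encodes amphiregulin, an EGFR ligand, was found almost only in controls, and unevenly (chromosome 5, 91139599 to 91148432, plus strand). It was at 0.273, 0.024 and 1.60 FPKM in controls 1, 2 and 4, from 21, 2 and 128 fragments. Foxl2-LSL libraries 1 and 4 held 1 fragment each (0.013 and 0.016 FPKM), and libraries 2 and 3 held 0, which allows up to 0.0517 and 0.0408 FPKM. The groups did not overlap, yet control 2 and all 4 libraries labelled Foxl2-LSL lay below the floor of 3 fragments. Summed over libraries, 151 against 2 fragments gave a depth-corrected ratio of 87.1 (95% exact conditional binomial interval 23.7 to 726, counting error only), and without control 4 the ratio was 19.9 (4.92 to 174). The spread between controls is far larger than this counting error. The log2 fold change of -0.58 (SE 0.30, 95% interval -1.26 to 0.11) did not pass (limma, adjusted p 0.154), nor did it in any of 18 alternatives (0.0521 to 0.455), and it was -0.18 without control 4. Pgr was lowest among controls in control 4 (24.8 FPKM, against 36.5 and 39.0 in controls 1 and 2) and was not called between groups (-0.36; limma, adjusted p 0.0845). It was called lower without control 4 (-0.55; adjusted p 0.00167) and with array weights (-0.56; adjusted p 0.00172), but in none of the other 16 alternatives (0.079 to 0.264). Esr1 rose (0.55; adjusted p 0.00662).

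Areg and Btc lie in a cluster with Epgn and Ereg, which spans 376 kb of chromosome 5 (91027464 to 91402994) in the order Epgn, Ereg, Areg, Btc. Of the 4 neighbours only Btc was called between the groups, and Epgn was too low to be tested. Ereg, the epiregulin gene, was at 0.022 FPKM or less in every library, from 0 to 6 fragments, and Epgn, the epigen gene, at 0.072 FPKM or less. Neither level supports a comparison at this depth. Btc held 119 to 559 fragments per library, and Areg at most 128.

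Among the 6 ligand genes followed here, without the neuregulins, Tgfa and Hbegf were the most abundant pair in each of the 7 libraries. Neither passed the test. Tgfa, the TGF-alpha gene (chromosome 6, 86195223 to 86275719, plus strand), had 8.62, 6.39 and 3.60 FPKM in controls, against 4.17, 8.91, 7.90 and 5.27 FPKM for Foxl2-LSL 1 to 4. Both groups spanned a range of more than 2-fold, and the difference was 0.085 on the log2 scale (95% interval -0.61 to 0.79; limma, adjusted p 0.843). Hbegf was at 6.41, 5.85 and 4.05 FPKM in controls and at 3.19, 3.92, 5.16 and 4.63 FPKM in the other group. Its groups overlapped because of control 4, with a log2 fold change of -0.30 (95% interval -0.70 to 0.11; limma, adjusted p 0.207), and without control 4 the value was -0.46 (adjusted p 0.051). Its part of the summed ligand FPKM was 37.5% to 42.1% in controls and 25.1% to 34.6% in the libraries labelled Foxl2-LSL.

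Egf, the founding ligand gene of the family, was low throughout (chromosome 3, 129677565 to 129755316, minus strand). Controls held 0.125, 0.311 and 0.309 FPKM and Foxl2-LSL 1 to 4 held 0.239, 0.184, 0.387 and 0.231 FPKM, from 38 to 112 fragments. The groups lay on top of each other (log2 fold change 0.015, 95% interval -0.28 to 0.31; limma, adjusted p 0.937). The sum of the 6 ligand genes was 13.7 ± 3.43 FPKM (SD, n = 3) in controls and 14.0 ± 2.68 FPKM (SD, n = 4) in the other group, and the groups overlapped. Exons of Egf, Tgfa and Ereg overlap other annotated genes, so part of their low or middling values cannot be assigned with certainty.

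**Figure D2:**
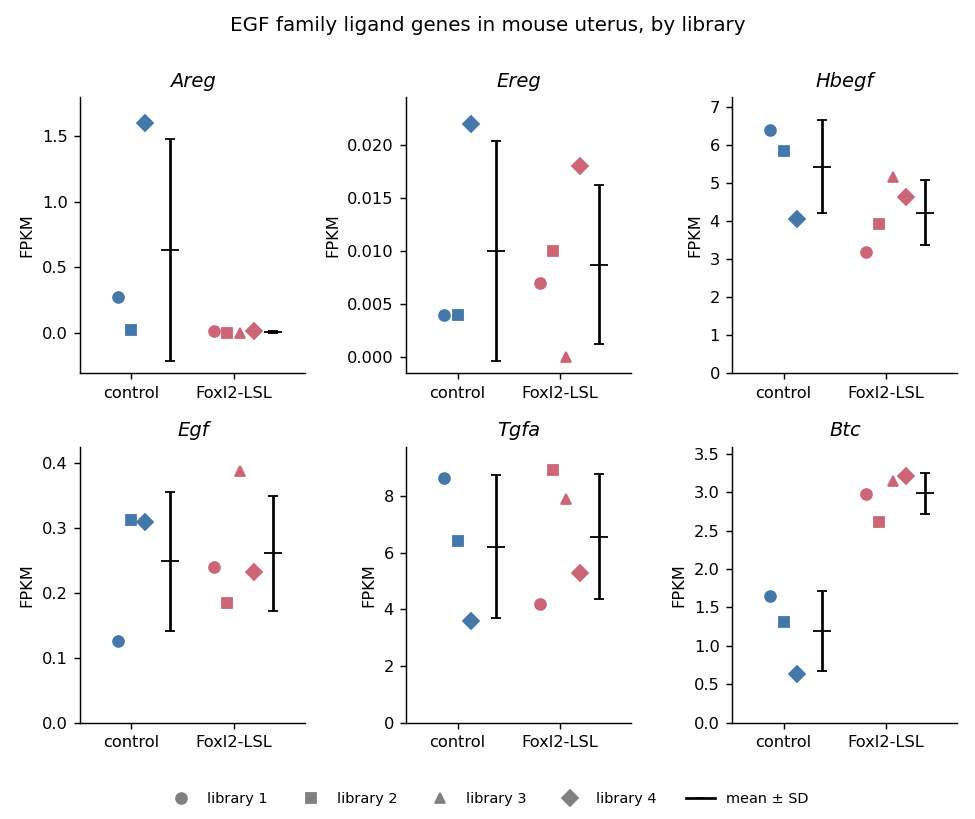
FPKM of the 6 ligand genes in each library, with the mean and SD of each group in black; each vertical axis has its own range, and those of Areg and Ereg reach only 1.60 and 0.022 FPKM. Btc separates the groups upward, Areg is high in control 4 alone, and Hbegf, Egf, Tgfa and Ereg overlap.

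**Figure D3:**
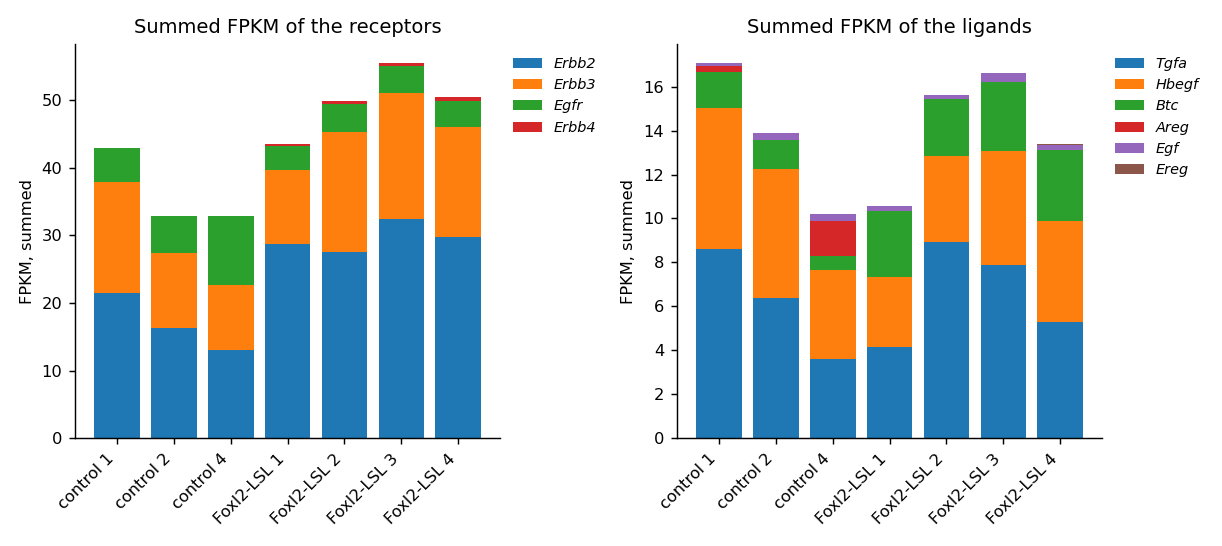
Stacked FPKM of the receptor genes (left) and the ligand genes (right) in each of the 7 libraries; bar height is the sum. The receptor sum is 32.9 to 42.8 FPKM in controls and 43.6 to 55.6 FPKM in the libraries labelled Foxl2-LSL, while the ligand sums overlap.

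**Figure D4:**
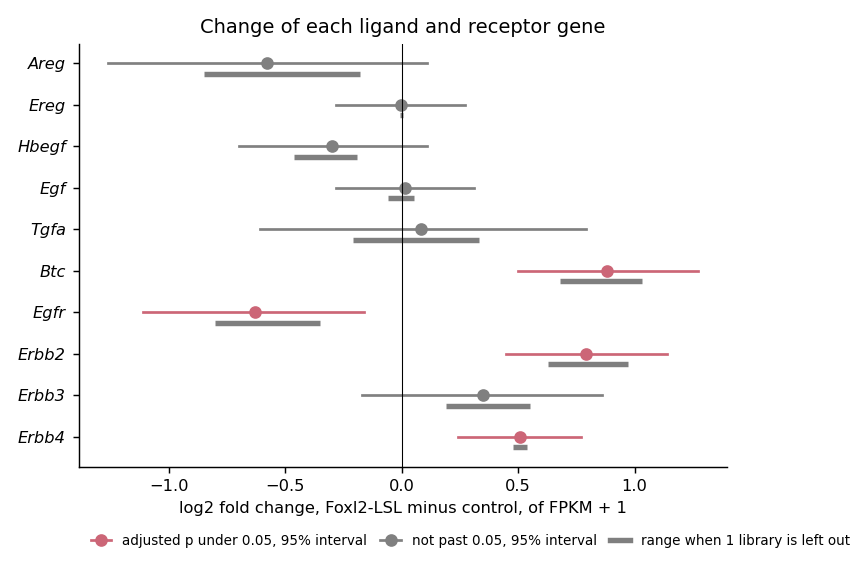
Log2 fold change of FPKM + 1 for each gene (libraries labelled Foxl2-LSL minus controls; point and 95% interval from limma), coloured by whether the adjusted p was under 0.05; the thick bar below each point is the range when 1 library is left out. Btc, Erbb2 and Erbb4 stay above 0 and Egfr stays below it, between -0.80 and -0.35.

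The rest of the pathway was read through 6 lists with 72 genes, of which 67 were tested. In all, 14 were higher and 14 lower, or 41.8% of those tested, close to the 40.5% of all tested genes (16.7% were called higher and 23.8% lower). Of the 22 genes that the naming rule took from these lists, 11 lost the call in at least 1 fit that left out a library, and the other 11 kept it in all 7. Among the other ligands, 2 of 5 were tested and 0 were called by limma, 0 had an unadjusted p under 0.05 and 0 were called by limma-voom, but the fit with array weights called Nrg2, which was lower, and 1 gene was called lower by limma without control 1. The neuregulin genes Nrg2 and Nrg4 were at 1.84 to 6.29 and 3.19 to 7.30 FPKM over the 7 libraries. Nrg3 was listed at 0 in each.

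Of 6 genes for ligand shedding, 3 fell and 1 rose. Adam17, the main sheddase of Areg, Hbegf and Tgfa products, fell: controls averaged 18.8 ± 1.48 FPKM (SD, n = 3) against 13.5 ± 0.256 FPKM (SD, n = 4), with a log2 fold change of -0.44 (limma, adjusted p 0.00264). Rhbdf2, which carries ADAM17 to the cell surface, rose from 8.47 ± 2.20 to 12.8 ± 0.851 FPKM (0.56), but its call was lost without control 2 (adjusted p 0.0647). Adam12 and Adam9 had log2 fold changes of -1.27 and -0.37. Adam12 lost its call when any library but control 1 was left out (adjusted p 0.0749 to 0.124), and Adam9 without control 2 or 4 or Foxl2-LSL 2 or 3 (0.0549 to 0.0874).

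Of 16 adaptor and RAS-MAPK genes, 2 rose and 5 fell, with small log2 fold changes between -0.41 and 0.45 among them. This balance depended on the processing. It was 4 higher and 2 lower with limma-voom, 4 and 3 with quantile normalization and 3 and 2 with median centring. With array weights it was 3 and 6. The kinase gene Braf rose from 7.64 ± 0.661 to 10.8 ± 1.20 FPKM (0.45; limma, adjusted p 0.00999), and the adaptor gene Gab1 rose by 0.35. Map2k2 (-0.41) and Ptpn11 (-0.35), which encode a MAPK kinase and the phosphatase SHP2, fell. Gab1 lost its call without control 1 or 2 or Foxl2-LSL 2 (adjusted p 0.0519 to 0.0899), and Map2k2 without control 1 or Foxl2-LSL 3 (0.0543 to 0.0586). The count of 7 calls became 2 without control 1, 3 without control 2 and 3 without Foxl2-LSL 3.

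Of 12 genes of the PI3K-AKT and STAT branch, 4 rose and 1 fell. Pik3r1, which encodes the main regulatory subunit of PI3K, rose in every library labelled Foxl2-LSL, from 23.3, 23.4 and 26.0 FPKM in controls to 47.2, 51.0, 51.2 and 52.6 FPKM. Its log2 fold change was 1.03 (SE 0.071; limma, adjusted p 0.000159), and the spread within groups was small beside it. The transcription factor genes Stat5a (9.37 ± 2.18 to 20.1 ± 2.82 FPKM) and Stat3 (33.4 ± 4.57 to 61.8 ± 3.94 FPKM) rose by 1.03 and 0.87. Akt1 fell by 0.33 and lost its call without control 1 or Foxl2-LSL 3 (adjusted p 0.0527 and 0.055).

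Of 18 feedback inhibitor genes, 5 rose and 1 fell. Lrig1, whose product promotes the breakdown of ERBB receptors, had 13.7, 23.9 and 14.0 FPKM in controls, against 68.3, 52.9, 71.0 and 79.2 FPKM for Foxl2-LSL 1 to 4. The lowest of these was more than 2 times the highest control, and the log2 fold change was 1.95 (SE 0.21; limma, adjusted p 0.000683). The Sprouty gene Spry2 rose from 9.50 ± 1.26 to 18.6 ± 1.17 FPKM (0.90), and Lrig2 rose by 0.48. Spry4 fell by 0.32 but lost this call in 6 of the 7 fits without a library, the exception being that without control 1 (adjusted p 0.0703 to 0.147). The count of 6 calls became 3 without Foxl2-LSL 3. Errfi1, which encodes a direct inhibitor of the EGFR kinase, was at 20.3 to 21.6 FPKM in controls and 17.4 to 19.1 FPKM in the other group and was not called (adjusted p 0.0575).

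Of 15 genes listed as transcriptional targets of EGF receptor signalling, 13 were tested, 2 rose and 4 fell. Ier3, an early response gene, rose, with 15.8 ± 2.13 FPKM in controls (SD, n = 3) against 74.6 ± 28.5 FPKM (SD, n = 4), and Hmga2, a chromatin protein gene, by 1.04. Ptgs2 (-1.36), Plaur (-0.98) and Myc (-0.60), which encode a prostaglandin synthase, the urokinase receptor and a transcription factor, fell. The list thus held calls in both directions, with 4 higher and 5 lower under array weights and 4 and 2 without control 1. The classical immediate early genes Egr1 and Fos were not called, but array weights called Fos. The call of Hmga2 was lost without control 2 or Foxl2-LSL 2, 3 or 4 (adjusted p 0.0524 to 0.0758), that of Ptgs2 without control 1 or 2 or Foxl2-LSL 2, 3 or 4 (0.0521 to 0.0963), and that of Myc without control 2 or 4 or Foxl2-LSL 1, 2 or 4 (0.0518 to 0.0813). The count of 6 calls became 2 without control 2 or without Foxl2-LSL 4 and 3 without Foxl2-LSL 3.

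**Figure D5:**
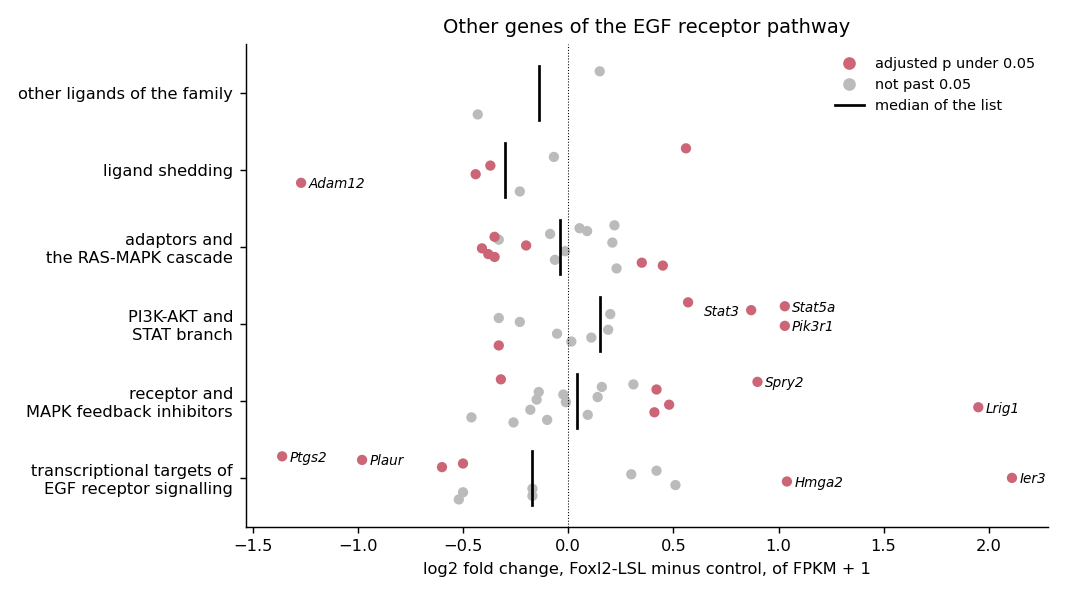
Log2 fold change of FPKM + 1 (libraries labelled Foxl2-LSL minus controls) of each tested gene of the 6 pathway lists, with called genes in red, the others in grey and the median of each list as a bar; called genes that changed by at least 0.8 are named. Lrig1 (1.95) and Ier3 (2.11) lie farthest to the right and Ptgs2 (-1.36) farthest to the left, while the list medians lie between -0.30 and 0.15.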

How the data were processed

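The authors deposited a table of FPKM values with 1 column per library and, as another value, the length of each gene in bases, per the file headers. The submitters' processing notes name the genome build mm10, STAR 2.5.2b, featureCounts 1.5.0-p1 (Subread) and DESeq2 1.12.4 with no roles. Annotation, strand setting and filters are not given in the sources used here. Groups came from sample titles and columns were matched by sample descriptions.

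Fragments were recovered as whole multiples of FPKM × length. Steps were fitted on genes up to 1500 bases and below 20 multiples, and 100% of the 1647 to 1819 low values used per library lay within 0.1 of a whole number. Genes averaging 1 FPKM or more, plus the 10 ligand and receptor genes, were fitted as log2(FPKM + 1) with limma 3.58.1 (R 4.3.3, trended eBayes). This left 13338 genes, of which 5404 passed the adjusted threshold of 0.05. Single values also had a two-sided exact permutation test over 35 splits. The 18 alternatives changed 1 choice each, apart from the replicate block and limma-voom. The block also dropped Foxl2-LSL 3, and limma-voom changed the input, the scaling and the weights together. Named genes were all 10, Foxl2, Pgr and Esr1, and up to 3 per direction with the largest changes in each pathway list. The 10 genes and all lists were chosen with earlier results of these data known. Coordinates are from GENCODE M21 (GRCm38) and promoters from RefSeq. Python 3.11.15 drew the figures. The values of 1 gene that the naming rule took are not reported here.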

Additional observations from a re-analysis of the deposited data

Results flagged for a closer look

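Among the 4 libraries labelled Foxl2-LSL, 1 value lay far from the rest by Dixon's criterion, which flags about 1 in 20 groups by chance and was applied to 35 genes. Gab1, an adaptor gene, was at 11.1 FPKM in Foxl2-LSL 2 and at 9.54 to 9.69 FPKM in the others. Without that library its log2 fold change was 0.30 and its adjusted p 0.0519 (limma). None of the 10 ligand and receptor genes had such a value. The 3 controls are too few for this criterion, so control 4 could not be judged by it.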

How the results depend on the processing

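Btc and Erbb2 kept direction and call under all 18 alternatives, 7 of which left out a library. Erbb4 kept its direction in all and its call in 16: it was 0.51 with the filter at a mean of 5 FPKM and 0.50 with the replicate block, neither past the threshold. Egfr lost its call with the same direction under quantile normalization (-0.59), median centring (-0.58), no filter (-0.63), limma-voom (-0.68) and the replicate block (-0.64), and across the 7 fits without a library it ranged from -0.80 to -0.35. Areg, Hbegf and Erbb3 kept their direction and were never called.

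Values near 0 changed sign without a call. Ereg was 0.050 under median centring, 0.0082 with array weights, 0.0024 with the replicate block and -0.0062 to 0.0068 without single libraries. Egf was -0.094 under quantile normalization, -0.026 with array weights, -0.032 with the block and -0.058 to 0.052 without single libraries. Tgfa was -0.11, -0.0093 and -0.21 to 0.33 with array weights, with the block and without single libraries, and Foxl2 was -0.15 with array weights and -0.10 to 0.28 without single libraries.

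The replicate block on libraries 1, 2 and 4 gave 3231 called genes against 5404, and 2 of the 10 (Btc and Erbb2), 1 shedding gene and 1 adaptor gene. The labels do not state a pairing, so the numbers were not taken to pair animals. The deviations of same-numbered libraries correlated at 0.228, -0.0306 and -0.112. Differently numbered libraries were not compared in this way, so these values cannot decide whether the numbers pair animals. The count of the 10 called was 3 to 4 without single libraries, where all called genes numbered 3855 to 5325. The lists gave 0 to 1 (other ligands), 1 to 4 (shedding), 2 to 7 (adaptors), 3 to 7 (feedback) and 2 to 6 (targets). Array weights called 1 other ligand and 8 genes of the PI3K-AKT and STAT list. The target list gave 2 calls with no filter and 3 with limma-voom. Of all called genes 41.1% were higher, against 50.4% after median centring and 52.4% with limma-voom. The causes were not tested. Of the 22 named pathway genes, 9 kept their call in every alternative that tested them and 0 changed sign. Ereg, Areg and Erbb4 in controls are limited by depth, with at most 128 fragments per library.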

Other observations

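Genes with the profile most like that of Btc, Erbb2 and Egfr were sought by Pearson's r of log2(FPKM + 1) over the 7 libraries. These values are a description and carry no p, since the group difference and the depth of each library are shared by all genes. Btc was most like Dsg2, a desmosomal cadherin gene (r 0.997; 10.1 ± 2.43 FPKM in controls and 17.7 ± 1.09 FPKM in the libraries labelled Foxl2-LSL), 2310043M15Rik (0.996) and Tmem30b (0.996). Erbb2 was most like Ccdc120 (0.998), Sema3b, a semaphorin gene (0.997), and Ptprr, a phosphatase gene (0.997; 6.96 ± 3.54 and 20.4 ± 2.61 FPKM). Egfr was most like Hapln3, a matrix link protein gene (0.997; 2.25 ± 1.77 and 0.477 ± 0.0719 FPKM), Akap17b (0.996) and Pik3r2 (0.993). With 7 libraries such values are common: 291, 245 and 162 tested genes had r above 0.95 with Btc, Erbb2 and Egfr.

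Among the 3 controls, control 4 had the highest value for 3 of the 10 genes (Areg, Ereg and Egfr) and the lowest for 6 (Hbegf, Tgfa, Btc, Erbb2, Erbb3 and Erbb4), so only Egf lay between the other controls there. Control 1 was close to this, with the highest value for 5 genes and the lowest for 3 (Ereg tied with control 2 at 0.004 FPKM). Control 2 had the highest for 2 and the lowest for 1. Every gene has a highest and a lowest control, so these counts alone do not set control 4 apart.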
